A study of Mus musculus with 18 samples.

Results

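Hippocampal RNA of newborn mice (postnatal day 0, P0) that lack the CxxC zinc finger of KDM2B was compared with that of control hippocampi of the same age, across all genes, by function and cell type. The table holds 3 libraries of conditional knockouts (genotype Kdm2bEmx1-delta-CxxC, here cKO) and 3 control libraries (Kdm2bfl/+ or Kdm2bfl/fl, here Ctrl). Of 23138 named genes in it, 13446 averaged 0.5 FPKM or more across the 6 libraries and are the members described, and the other 9692 lie below that level. The level was chosen on the mean over both groups. A gene can therefore pass only through the group where it is high, as *Fgf3* did through cKO and *Fst* through Ctrl libraries. For such genes only a call in that direction could arise. The labels do not tell which controls had the floxed allele on 1 and which on both chromosomes, so they form a single group. In cKO mice Cre driven from the *Emx1* locus removes exon 13 of *Kdm2b*, which encodes the zinc finger, in progenitors of the dorsal telencephalon and in the cells they give rise to. Interneurons, microglia, vessels and other cells from outside that lineage keep the exon, and the study describes truncated KDM2B isoforms that remain in the P0 neocortex of these mice. Series-wide, the same cKO was also profiled as neurospheres and P0 cortex, and a cKO of *Rnf2* as P0 hippocampus, with 2 libraries per group each.

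KDM2B binds unmethylated CpG dinucleotides through its CxxC zinc finger and brings a variant Polycomb repressive complex, PRC1.1, to CpG islands. PRC1.1 places ubiquitin on histone H2A, a mark that goes with gene silencing, and many developmental regulators are among the genes that Polycomb complexes hold down. The hippocampus forms at the medial edge of the cortex beside the cortical hem, a signaling center that sends Wnt and BMP ligands, and at birth its CA fields hold young pyramidal neurons while the dentate gyrus is still being populated.

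Levels are given in FPKM, fragments scaled to transcript length and library size, as the authors deposited them. Levels of different genes can thus be set side by side per length, while the number of reads behind each value cannot be read from them. They are listed in the order of libraries 1, 2 and 3 of each group. Differences are cKO against Ctrl on the log2(FPKM + 1) scale, given with ± the standard error from limma, and this scale understates the change of genes at low levels. A gene was called higher or lower when the log2 fold change was above 0.4 in size at an unadjusted p under 0.05, and adjusted p values cover all genes tested. The labels do not say how many animals a library holds, so the p values measure the spread between these libraries.

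Libraries of a group resembled each other somewhat more than libraries across groups, with correlations of log2 values over genes of 0.987 to 0.992 within and 0.98 to 0.987 between the groups. The first principal component held 40.1% of the variance and separated the groups. Library cKO 1 had *Xist* at 154 FPKM against at most 0.0732 in the other 5, and *Ddx3y*, a Y-linked gene, at 0.0125 against 15 to 16.3, so this library differed from the rest in sex. *Kdm2b* itself was at 31.9, 28.3 and 28.1 FPKM in Ctrl and 28.2, 27.3 and 26.2 in cKO libraries (log2 fold change -0.10 ± 0.062, adjusted p = 0.364), and since the deletion takes out a single exon the gene's level does not test the genotype. Markers of hippocampal excitatory neurons were present in all libraries, with *Neurod6* at 131 to 180.1 FPKM, *Zbtb20*, read from an entry shared with *Mir568*, at 36.9 to 49.8 and *Prox1* at 29.8 to 41.3.

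A total of 523 genes were called higher (3.89% of those tested) and 303 lower (2.25%), and 395 (2.94%) and 198 (1.47%) of these had an adjusted p under 0.05. The changes were small for most genes. The median log2 fold change of the called genes was 0.54 for the higher and -0.50 for the lower ones, 37 genes rose and 12 fell by more than 1, and the median over all genes tested was 0.0084. List medians were below 0 for genes of mature neuronal function, motile cilia and cholesterol synthesis, and above 0 for genes of antigen presentation, Hedgehog and Notch signaling, Cajal-Retzius cells, thalamus and microglia.

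**Figure D1:**
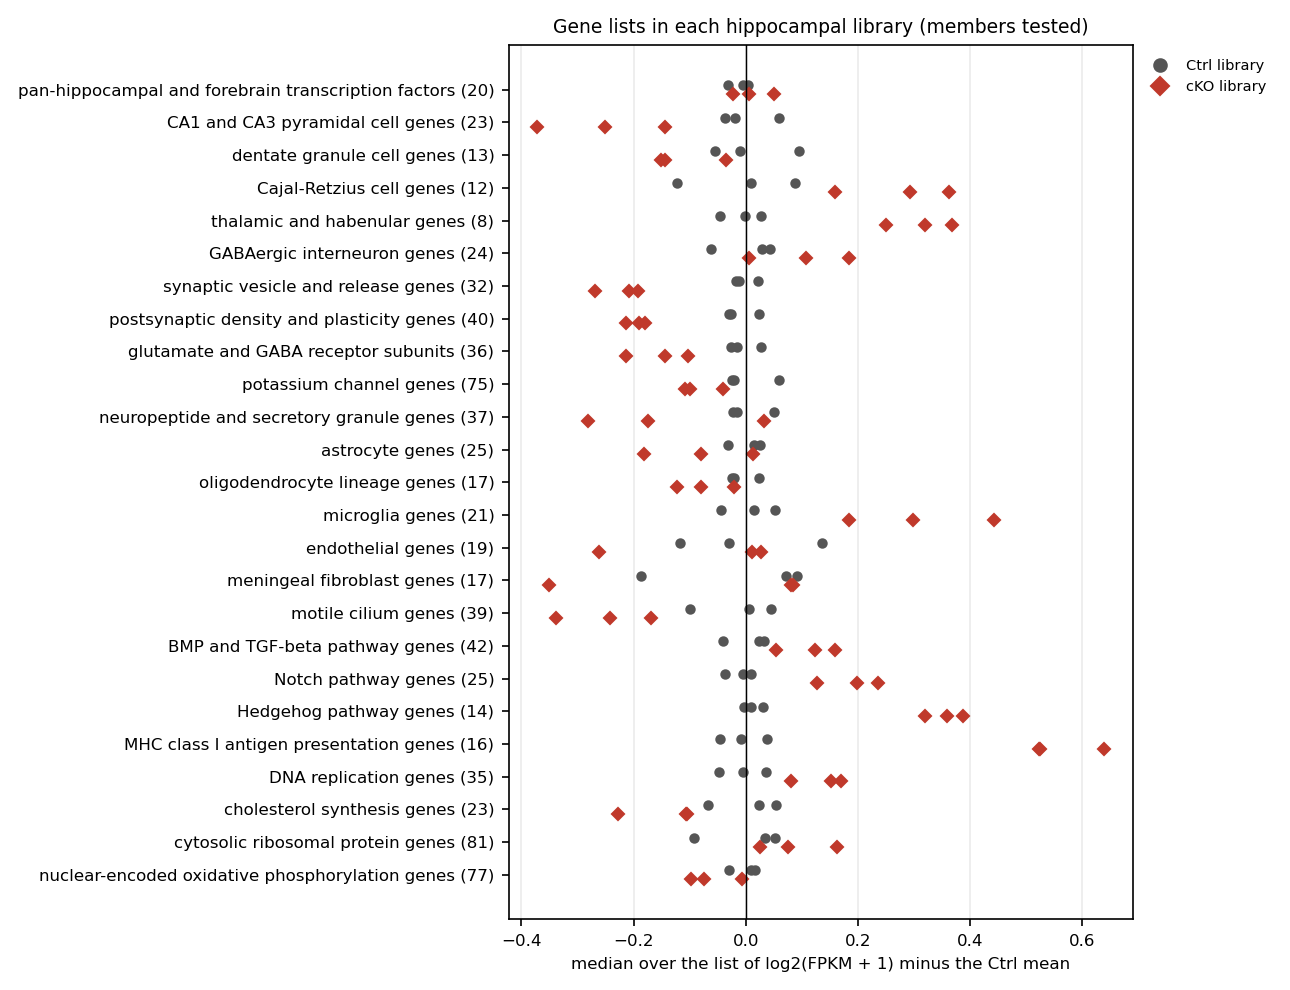
Median over each gene list of log2(FPKM + 1) minus the Ctrl mean, for every hippocampal library, with the number of tested members in brackets (circles, 3 Ctrl libraries; diamonds, 3 cKO libraries). All 3 cKO libraries lie below all Ctrl libraries for synaptic vesicle and postsynaptic genes and above them for Hedgehog and MHC class I genes, while the groups overlap for endothelial and meningeal genes.

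Transcription factors of hippocampal identity had 1 call, and several CA pyramidal cell genes were lower. Among 20 transcription factors of the hippocampus and forebrain, 0 were called higher and 1 lower, and their median was -0.0031. At any fold 4 were higher and 1 lower at an adjusted p under 0.05, against 4.28% and 3.99% of all genes. *Bcl11b* (CTIP2), the single member called, was at 18.6, 19.9 and 19.2 FPKM in Ctrl and 17.6, 10.5 and 12.1 in cKO libraries (log2 fold change -0.52 ± 0.15, adjusted p = 0.0624), with cKO 1 close to the controls, and it was not called without cKO 2. Without cKO 1 the list held 3 lower calls. Of 23 genes enriched in CA1 or CA3 pyramidal cells, 6 were called lower and 1 higher, with a median of -0.22; without cKO 2 these were 3 lower and a median of -0.13, and without Ctrl 2 the higher ones were 2. *Fibcd1*, a receptor with high levels in CA1, was at 9.97, 7.53 and 7.42 FPKM in Ctrl and 4.25, 3.88 and 5.57 in cKO libraries (log2 fold change -0.74 ± 0.14, adjusted p = 0.0148). *Cpne7*, a calcium-dependent membrane-binding protein read from an entry shared with *Mir7080*, was at 14.8, 17.4 and 15.4 FPKM in Ctrl and 9.88, 8.29 and 11.1 in cKO libraries (log2 fold change -0.65 ± 0.10, adjusted p = 0.00806). In both genes every cKO library lay below every Ctrl library.

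*Pou3f1* (SCIP), a POU-domain factor of CA1, was spread widely within both groups. Its level was 8.26, 14.5 and 13 FPKM in Ctrl and 7.32, 3.08 and 2.51 in cKO libraries (log2 fold change -1.36 ± 0.30, adjusted p = 0.0280). *Coch*, an extracellular protein on the same list, went up, at 3.43, 3.55 and 3.02 FPKM in Ctrl and 5.2, 4.7 and 6.08 in cKO libraries (log2 fold change 0.54 ± 0.11, adjusted p = 0.0181). Of 13 dentate granule cell genes only *C1ql3*, a secreted synaptic organizer, was called, at 1.81, 2.58 and 2.13 FPKM in Ctrl and 0.935, 1.02 and 2.14 in cKO libraries (log2 fold change -0.45 ± 0.19, adjusted p = 0.188), and the groups overlapped. That call was lost without Ctrl 2, Ctrl 3, cKO 1 or cKO 2, and 2 genes were called lower without Ctrl 1 or cKO 3. *Prox1*, the factor that sets granule cell identity, was at 29.8, 39 and 34 FPKM in Ctrl and 32.1, 40.7 and 41.3 in cKO libraries (log2 fold change 0.14 ± 0.11, adjusted p = 0.497). In such bulk tissue, fewer cells of a type and less RNA per cell cannot be told apart.

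Synaptic vesicle genes lay lower in cKO libraries by small amounts. Of 32 synaptic vesicle and release genes 29 had a log2 fold change below 0, against 47.8% of all genes tested, and in 23 all cKO libraries lay below all controls, against 14.3% of all genes. Their median was -0.22, so that only 3 passed the fold threshold and none was called higher; 14 had an adjusted p under 0.05 at any fold, and over all genes 3.99% were. Without Ctrl 3 or cKO 3 the members called lower were 5. *Slc17a7* (VGLUT1), which loads glutamate into vesicles, was at 84.1, 101 and 70.4 FPKM in Ctrl and 55.8, 50.02 and 64.7 in cKO libraries (log2 fold change -0.57 ± 0.13, adjusted p = 0.0286). *Sv2b*, a vesicle glycoprotein of excitatory terminals, was at 14, 15.4 and 13.3 FPKM in Ctrl and 9.46, 8.33 and 9.6 in cKO libraries (log2 fold change -0.59 ± 0.081, adjusted p = 0.00502). In both, all cKO libraries lay below all controls. The pan-neuronal vesicle protein *Syp* differed less, at 125, 136 and 126 FPKM in Ctrl and 102, 106 and 110.4 in cKO libraries (log2 fold change -0.28 ± 0.053, adjusted p = 0.0160), and was not called. *Doc2b*, a calcium sensor of release, was at 8.35, 10.2 and 7.61 FPKM in Ctrl and 5.53, 5.53 and 7.71 in cKO libraries (log2 fold change -0.43 ± 0.14, adjusted p = 0.0925) and was not called without Ctrl 2, cKO 1 or cKO 2.

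On the postsynaptic side all calls were lower. Of 40 genes of the postsynaptic density and plasticity, 8 were called lower, all with an adjusted p under 0.05, and none higher (median -0.17). *Nrgn* (neurogranin), which holds calmodulin at spines, had 106, 112 and 108 FPKM in Ctrl and 52.7, 37.4 and 59.2 in cKO libraries (log2 fold change -1.13 ± 0.14, adjusted p = 0.00282). *Thy1*, a surface glycoprotein of projection neurons, had 30.3, 29.5 and 28.2 FPKM in Ctrl and 16.7, 16.5 and 16.8 in cKO libraries (log2 fold change -0.78 ± 0.052, adjusted p = 0.000118), with the libraries of each group close together. *Camk2a*, the kinase of synaptic plasticity, had 77.6, 96 and 68.3 FPKM in Ctrl and 49.7, 43.6 and 51.1 in cKO libraries (log2 fold change -0.72 ± 0.11, adjusted p = 0.00739). Others called were *Camk4*, *Ppp3ca* and *Dlg2*, which encode a calcium-dependent kinase, a catalytic calcineurin subunit and a scaffold, and the entry of *Cacng8*, shared with *Gm23450*.

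Receptors and channels had calls in both directions, while most of their genes had a log2 fold change below 0. These were 27 of 36 receptor, 51 of 75 potassium channel and 23 of 35 sodium and calcium channel genes, against 47.8% of all genes tested. Over all genes tested, 3.89% were called higher and 2.25% lower. The shares called higher among potassium (4%) and sodium and calcium channel genes (2.86%) lay near the first of these. Of 36 glutamate and GABA receptor genes, 4 were called lower and 3 higher (median -0.12). Without cKO 3 the lower ones were 7. At any fold 12 were lower and 2 higher at an adjusted p under 0.05, against 3.99% and 4.28% of all genes. The falling ones were *Grin3a*, *Gabra5*, *Gabra3* and *Grm5*. *Grin3a*, a glycine-binding NMDA receptor subunit, was at 9.04, 8.13 and 11.4 FPKM in Ctrl and 5.64, 4.96 and 5.86 in cKO libraries (log2 fold change -0.69 ± 0.12, adjusted p = 0.0111). *Gabra5*, the GABA-A subunit of extrasynaptic receptors in the hippocampus, was at 64.5, 66.9 and 60.1 FPKM in Ctrl and 43.8, 37.9 and 48.1 in cKO libraries (log2 fold change -0.56 ± 0.082, adjusted p = 0.00624). The rising ones were the metabotropic receptors *Grm4* and *Grm2* and, at a low level, the NMDA subunit *Grin2c*. *Grm4* was at 2.81, 2.73 and 2.9 FPKM in Ctrl and 4.21, 6.11 and 5.04 in cKO libraries (log2 fold change 0.67 ± 0.12, adjusted p = 0.0126). *Grm2* was at 4.45, 3.29 and 4.55 FPKM in Ctrl and 6.22, 6.36 and 5.67 in cKO libraries (log2 fold change 0.48 ± 0.11, adjusted p = 0.0349) and was not called without Ctrl 2.

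Of 75 potassium channel genes 6 fell and 3 rose (median -0.10), and the rising ones were 6 without cKO 1 and 5 without cKO 2. *Kcnd2* (Kv4.2), which carries the dendritic A-type current of pyramidal neurons, was at 25.8, 30.2 and 27.5 FPKM in Ctrl and 20.4, 16.7 and 15 in cKO libraries (log2 fold change -0.66 ± 0.10, adjusted p = 0.00801), and the leak channel *Kcnk9* (TASK-3) at 5.59, 4.69 and 5.55 FPKM in Ctrl and 3.81, 2.94 and 2.55 in cKO libraries (log2 fold change -0.62 ± 0.13, adjusted p = 0.0199). In both, all cKO libraries lay below all controls. Among 35 sodium and calcium channel genes 2 fell and 1 rose. The acid-sensing channel *Asic2* was at 22.9, 23.9 and 22.1 FPKM in Ctrl and 16, 14.3 and 14.5 in cKO libraries (log2 fold change -0.59 ± 0.063, adjusted p = 0.00186).

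Neuropeptide genes held a large fall and a large rise. Of 37 neuropeptide, peptide receptor and secretory granule genes 8 were called lower and 1 higher. Their median was -0.15, and -0.050 without cKO 2. *Cck* (cholecystokinin), a peptide of pyramidal cells and of a class of interneurons, was at 162, 241 and 155 FPKM in Ctrl and 100.05, 36.9 and 64.2 in cKO libraries (log2 fold change -1.54 ± 0.30, adjusted p = 0.0179), with a wide spread among the cKO libraries. *Tac2* (neurokinin B) was higher in every cKO library, at 15.3, 15.4 and 14.6 FPKM in Ctrl and 45, 41.1 and 48.9 in cKO libraries (log2 fold change 1.51 ± 0.068, adjusted p = 1.82e-05). The gene of its receptor, *Tacr3*, fell, at 4.35, 2.54 and 3.64 FPKM in Ctrl and 1.18, 0.82 and 0.866 in cKO libraries (log2 fold change -1.19 ± 0.16, adjusted p = 0.00460). The groups did not overlap in *Cck*, *Tac2* or *Tacr3*. The interneuron peptides *Sst* and *Npy* did not pass the test, with *Sst* at 96.9, 91.1 and 94.8 FPKM in Ctrl and 81.1, 64.1 and 109 in cKO libraries (log2 fold change -0.19 ± 0.15, adjusted p = 0.517). *Npy* was at 44.7, 47.9 and 47.9 FPKM in Ctrl and 40.7, 36.2 and 57.9 in cKO libraries (log2 fold change -0.087 ± 0.14, adjusted p = 0.775). Of the granule proteins, *Scg2* (secretogranin II) fell, at 20.1, 21.9 and 21.2 FPKM in Ctrl and 12.6, 13.4 and 14.3 in cKO libraries (log2 fold change -0.61 ± 0.066, adjusted p = 0.00186).

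**Figure D2:**
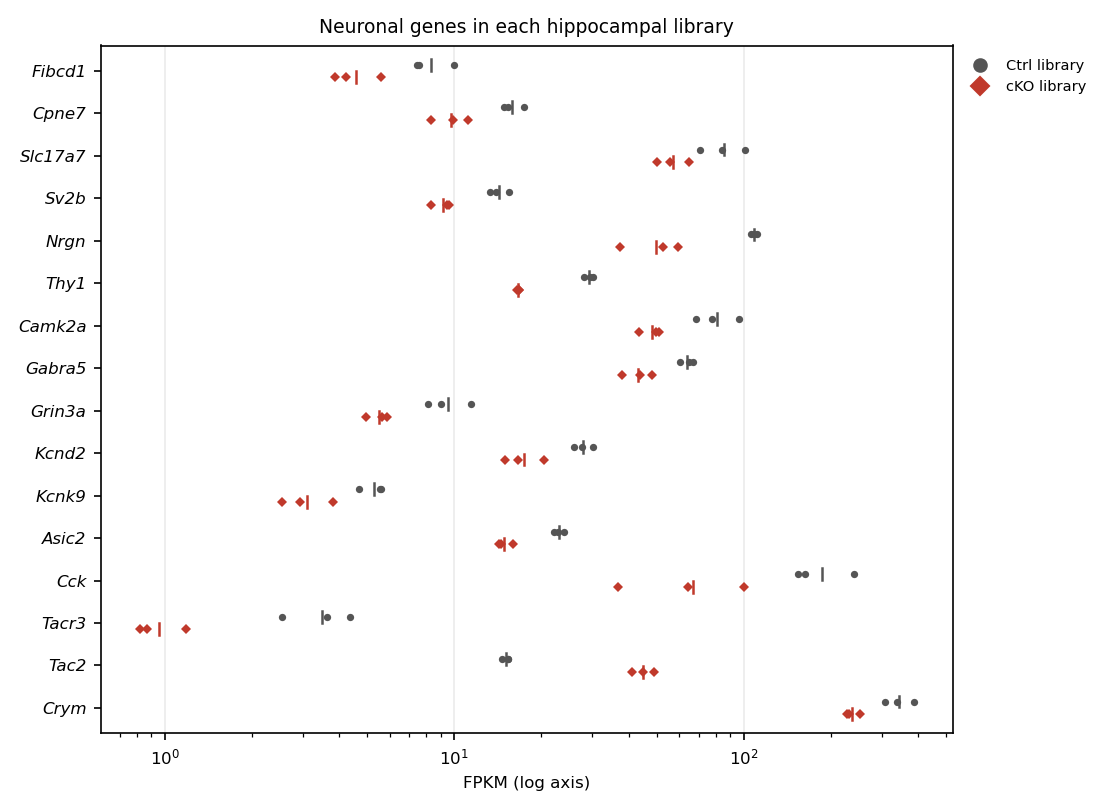
FPKM of 16 neuronal genes in each hippocampal library on a log axis (circles, Ctrl; diamonds, cKO; ticks, group means; 3 libraries each). Apart from *Tac2*, which is higher in cKO libraries, the genes shown are lower in all 3 cKO libraries than in any Ctrl library.

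Several genes of neurons at the borders of the hippocampus were higher. Cajal-Retzius cells are early reelin-secreting neurons, many of which come from the cortical hem. Of 12 genes of these cells 4 were called higher and none lower (median 0.28), and in 7 all cKO libraries lay above all controls, against 14.9% of all genes. *Lhx1*, a LIM homeobox factor, was at 2.84, 2.24 and 2.53 FPKM in Ctrl and 4.29, 5.05 and 4.3 in cKO libraries (log2 fold change 0.65 ± 0.11, adjusted p = 0.00930). *Cxcr4*, the receptor that positions these cells under the meninges, was at 53.9, 56.8 and 59.2 FPKM in Ctrl and 78.2, 76.1 and 82.6 in cKO libraries (log2 fold change 0.47 ± 0.053, adjusted p = 0.00226). *Ebf3* was at 3.93, 3.08 and 4.04 FPKM in Ctrl and 4.9, 10.1 and 8.17 in cKO libraries (log2 fold change 0.85 ± 0.20, adjusted p = 0.0356). The markers *Reln* and *Trp73* were not called. *Reln* was at 94.5, 82 and 111 FPKM in Ctrl and 102, 105 and 74.1 in cKO libraries (log2 fold change -0.036 ± 0.14, adjusted p = 0.914). *Trp73*, below the fold threshold, was at 11.3, 10.6 and 13.1 FPKM in Ctrl and 13.7, 14.9 and 14.6 in cKO libraries (log2 fold change 0.29 ± 0.082, adjusted p = 0.0649).

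Thalamic and habenular genes, of which 3 of 8 were called higher (median 0.31), included *Lhx9*, at 12.1, 15 and 15.1 FPKM in Ctrl and 20.8, 23 and 19.9 in cKO libraries (log2 fold change 0.57 ± 0.092, adjusted p = 0.00916), and *Zic4*. The thalamic marker *Gbx2* was below the level for testing, at 0.0580, 0.0293 and 0.0269 FPKM in Ctrl and 0.17, 0.372 and 0.143 in cKO libraries, and *Tcf7l2* was at 1.15, 0.793 and 0.909 FPKM in Ctrl and 1.7, 1.65 and 1.38 in cKO libraries (log2 fold change 0.40 ± 0.12, adjusted p = 0.0716), just past the threshold and not called without Ctrl 2, Ctrl 3, cKO 1 or cKO 2. The summed FPKM of the list was 59.3 to 62.6 in controls and 79.7 to 95.5 in cKO libraries. The part that tissue from the diencephalon has in the rises of *Zic*, *Lhx9* and related genes was not tested. Striatal genes showed no such shift, with 1 called higher (0 without Ctrl 3, cKO 2 or cKO 3) and 1 lower (2 without Ctrl 1 or cKO 1) of 12 and with *Drd1* at 0.39 to 0.751 FPKM. Interneuron genes had 2 of 24 called higher, *Sp8* and *Sox6* (1 without Ctrl 2), and *Gad1* was at 34.4, 30.7 and 31.5 FPKM in Ctrl and 27.6, 34.5 and 38.8 in cKO libraries (log2 fold change 0.050 ± 0.11, adjusted p = 0.836). Of 18 neocortical layer genes, *Crym*, a thyroid hormone-binding protein, fell at 307, 387 and 339 FPKM in Ctrl and 230.3, 227 and 251 in cKO libraries (log2 fold change -0.54 ± 0.083, adjusted p = 0.00726). *Bcl11b* was the other member called lower, lost without cKO 2, leaving 1, and *Nxph4*, a neurexin ligand, rose, at 9.57, 8.34 and 9.77 FPKM in Ctrl and 26.7, 27 and 23.7 in cKO libraries (log2 fold change 1.39 ± 0.078, adjusted p = 4.48e-05).

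Calls among microglial genes were all higher and among motile cilium genes all lower, and endothelial and meningeal genes had none. The shares over all genes tested were 3.89% called higher and 2.25% called lower. Microglia enter the brain from the yolk sac, outside the *Emx1* lineage. Of 21 microglial genes 9 were called higher, 6 with an adjusted p under 0.05, and none lower (median 0.35); without cKO 2 the number was 4. *C1qb*, a complement component, was at 17.2, 15.7 and 16.3 FPKM in Ctrl and 20.5, 26.9 and 27.4 in cKO libraries (log2 fold change 0.56 ± 0.10, adjusted p = 0.0134). The lysosomal protease *Ctss* was at 8.84, 7.29 and 8.54 FPKM in Ctrl and 10.9, 13.4 and 13.7 in cKO libraries (log2 fold change 0.57 ± 0.10, adjusted p = 0.0135). The lysosomal membrane protein *Laptm5* was at 8.42, 7.81 and 8.05 FPKM in Ctrl and 11.6, 12.9 and 11.7 in cKO libraries (log2 fold change 0.52 ± 0.071, adjusted p = 0.00502). All cKO libraries lay above the controls in these 3 genes. Of the defining markers *Cx3cr1* was at 4.02, 3.52 and 4.27 FPKM in Ctrl and 5.22, 6.24 and 5.47 in cKO libraries (log2 fold change 0.43 ± 0.10, adjusted p = 0.0325), and it was not called without Ctrl 2 or cKO 2. *Csf1r* was at 7.79, 7.07 and 7.88 FPKM in Ctrl and 8.75, 12 and 9.41 in cKO libraries (log2 fold change 0.35 ± 0.11, adjusted p = 0.0805), below the fold threshold. *P2ry12*, at 2.77, 2.61 and 2.78 FPKM in Ctrl and 2.5, 3.03 and 3.07 in cKO libraries (log2 fold change 0.053 ± 0.10, adjusted p = 0.815), did not pass the test. The summed FPKM of the list was 570.2 to 620.5 in controls and 627 to 670.2 in cKO libraries.

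Astrocyte genes split. Of 25 tested, 2 rose and 3 fell, the falling ones with adjusted p values above 0.05 and 1 in number without cKO 1. *Aqp4*, the water channel of mature astrocytes, was at 10.2, 11.3 and 9.88 FPKM in Ctrl and 4.86, 6.74 and 8.82 in cKO libraries (log2 fold change -0.59 ± 0.16, adjusted p = 0.0571) and was not called without cKO 1, and *Slc1a3* (GLAST), which radial glia also carry, was at 113, 118 and 115 FPKM in Ctrl and 127, 131 and 140.1 in cKO libraries (log2 fold change 0.20 ± 0.050, adjusted p = 0.0446), below the fold threshold. *Sox9* and *Gli3*, regulators shared with neural progenitors, rose, *Sox9* to 15.9, 17.2 and 18.4 FPKM in cKO libraries from 10.1, 10.6 and 10.3 in Ctrl libraries (log2 fold change 0.68 ± 0.069, adjusted p = 0.00151). Oligodendrocyte lineage genes had 1 call of 17, *C1ql1*, at 6.99, 7.54 and 6.53 FPKM in Ctrl and 12.9, 13.7 and 14.4 in cKO libraries (log2 fold change 0.87 ± 0.077, adjusted p = 0.000750). *Olig2*, a defining marker of the lineage, was at 12.1, 11.1 and 11.9 FPKM in Ctrl and 10.6, 12.2 and 9.3 in cKO libraries (log2 fold change -0.12 ± 0.094, adjusted p = 0.491).

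By limma no gene was called in either direction among 19 endothelial genes (0 above and 0 below 0 at an unadjusted p under 0.05), 17 meningeal fibroblast genes (1 above and 0 below 0 at an unadjusted p under 0.05) and 3 red blood cell genes (0 above and 0 below 0 at an unadjusted p under 0.05). With 3.89% called higher and 2.25% lower over all genes tested, lists this short can hold no call at the same shares. Of the pericyte and muscle genes of vessels, 1 of 11 mural cell genes, *Tagln*, fell at a low level, and none did without Ctrl 1, Ctrl 3 or cKO 3. *Cldn5* of the endothelium was at 72.3, 51.1 and 56 FPKM in Ctrl and 59.4, 66.2 and 54.3 in cKO libraries, and *Col1a1* of the meninges at 10.8, 8.41 and 10.03 FPKM in Ctrl and 10.4, 9.59 and 5.81 in cKO libraries, with the groups overlapping in both. Of 8 choroid plexus genes 3 were called higher, none with an adjusted p under 0.05, and 1 was without Ctrl 1, Ctrl 2, cKO 1 or cKO 2. *Clic6*, among the genes called, had a Ctrl mean of 0.255 FPKM and passed the filter only through the cKO libraries. *Ttr* was at 3.96, 3.64 and 14.2 FPKM in Ctrl and 56, 37.9 and 5.29 in cKO libraries (log2 fold change 1.77 ± 0.75, adjusted p = 0.194), high in cKO 1 and cKO 2 and among the controls in cKO 3, and it was not called without Ctrl 1, Ctrl 2, cKO 1 or cKO 2. *Kl*, another choroid plexus marker, stayed at 0.337, 0.408 and 0.227 FPKM in Ctrl and 0.238, 0.254 and 0.276 in cKO libraries. Of 39 motile cilium genes 8 were called lower and none higher, with a median of -0.24. *Tmem212* was at 2.36, 2.05 and 2.61 FPKM in Ctrl and 0, 0.496 and 0.798 in cKO libraries (log2 fold change -1.26 ± 0.20, adjusted p = 0.00806). Its cKO mean lay under 0.5 FPKM, so it passed the filter only through the Ctrl libraries and a fall was the only call open to it. *Rsph1*, a radial spoke protein, was at 9.1, 7.25 and 9.5 FPKM in Ctrl and 4.27, 5.91 and 5.57 in cKO libraries (log2 fold change -0.62 ± 0.13, adjusted p = 0.0209).

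MHC class I antigen presentation was the list with the largest median change, 0.62. The class I molecules show peptides on the cell surface with beta-2-microglobulin, the TAP transporter brings the peptides into the endoplasmic reticulum, and the immunoproteasome cuts them. Of 16 genes tested 11 were called higher, 9 with an adjusted p under 0.05, none was lower, and all 16 had a log2 fold change above 0. Over all genes tested, 3.89% were called higher and 52.2% had a log2 fold change above 0. *H2-K1*, a classical class I heavy chain, was at 5.23, 4.05 and 4.17 FPKM in Ctrl and 16.6, 17.1 and 15.8 in cKO libraries (log2 fold change 1.68 ± 0.093, adjusted p = 4.48e-05). *H2-D1*, whose entry is shared with *H2-L*, was at 13.9, 11.2 and 12.8 FPKM in Ctrl and 26.8, 26.6 and 26.4 in cKO libraries (log2 fold change 1.02 ± 0.075, adjusted p = 0.000200). In both, the cKO libraries lay close together above all controls. The light chain *B2m* was at 37.9, 26.7 and 28.2 FPKM in Ctrl and 43.4, 51.3 and 50.3 in cKO libraries (log2 fold change 0.64 ± 0.12, adjusted p = 0.0149). The transporter subunit *Tap1* was at 1.71, 2.04 and 1.48 FPKM in Ctrl and 5.27, 4.69 and 4.28 in cKO libraries (log2 fold change 1.07 ± 0.11, adjusted p = 0.00186). The immunoproteasome subunit *Psmb8* was at 2.1, 1.27 and 1.14 FPKM in Ctrl and 2.52, 3.6 and 2.56 in cKO libraries (log2 fold change 0.65 ± 0.17, adjusted p = 0.0464).

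The class I heavy chain genes are near-identical copies of each other, and reads may be split among them, so the values of single *H2* genes are uncertain. The heavy chain, *Tap* and *Psmb8* and *Psmb9* genes lie together on chromosome 17, and 3 tested members lie elsewhere, among them *B2m* (chromosome 2). Between the outermost members, chr17:33909414-37274484 in mm10, 16 of 87 tested genes were called higher, 18.4%. Of the 73 entries there that share no gene name with an entry on the list 5 were called higher, 6.85%. Among them were *Hspa1a* and *Hspa1b*, a shared entry of inducible heat shock proteins at 0.911, 0.828 and 1.06 FPKM in Ctrl and 2.94, 3.33 and 3.33 in cKO libraries (log2 fold change 1.12 ± 0.11, adjusted p = 0.00108). On the rest of chromosome 17 the share was 4.65%. Interferon-induced genes, which are often induced together with class I genes, had no call in either direction by limma among 15 tested (3 above and 1 below 0 at an unadjusted p under 0.05) and a median of 0.12. The part that microglia have in the class I values was not tested.

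**Figure D3:**
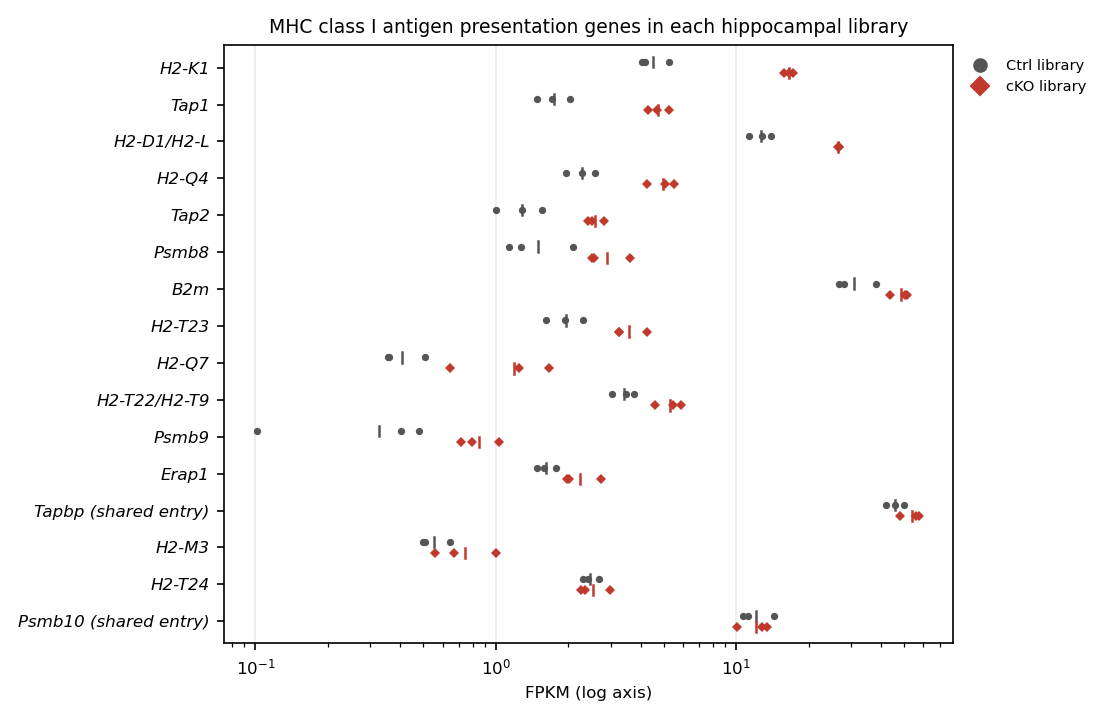
FPKM of the 16 MHC class I antigen presentation genes in each hippocampal library on a log axis, sorted by log2 fold change (circles, Ctrl; diamonds, cKO; ticks, group means; 3 libraries each). The cKO libraries lie above all Ctrl libraries in 12 of the 16 genes, against 14.9% of all genes tested, and the groups overlap for *Psmb10*, *H2-T24*, *H2-M3* and *Tapbp*.

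Genes of cartilage and tendon stood among the largest rises. *Col2a1*, the type II collagen of cartilage, was at 4.2, 3.51 and 3.56 FPKM in Ctrl and 18.2, 18 and 12.8 in cKO libraries (log2 fold change 1.85 ± 0.13, adjusted p = 0.000173). *Pth1r*, the parathyroid hormone receptor of chondrocytes and bone, was at 3.54, 3.72 and 3.16 FPKM in Ctrl and 15.2, 14.8 and 12.2 in cKO libraries (log2 fold change 1.75 ± 0.10, adjusted p = 4.48e-05). *Scx* (scleraxis), a bHLH factor of tendon precursors, was at 0.308, 0.62 and 0.705 FPKM in Ctrl and 4.9, 2.6 and 3.39 in cKO libraries (log2 fold change 1.56 ± 0.18, adjusted p = 0.00282). Each lay above the controls in every cKO library. Of 15 cartilage genes 4 rose and 1 fell, and the median was 0.047. Beside *Col2a1* and *Pth1r* the rising ones were *Sox9* and *Sox6*, which neural cells also express. Over 33 collagen genes 2 rose, *Col2a1* and *Col26a1*, 1 fell and the median was -0.029. Integrin and laminin genes had 3 higher and 1 lower of 30, with *Itga3* at 4.997, 4.77 and 4.86 FPKM in Ctrl and 8.53, 8.32 and 7.75 in cKO libraries (log2 fold change 0.65 ± 0.077, adjusted p = 0.00282). The single lower call of the cartilage list was lost without Ctrl 2, that of the collagens without Ctrl 2 or cKO 3, and that of the integrins without Ctrl 3 or cKO 1. Of 39 matrix glycoprotein genes 3 rose and 2 fell, with the synapse-organizing *Sparcl1* (hevin) at 89.8, 94.6 and 106 FPKM in Ctrl and 53.2, 63.2 and 61.8 in cKO libraries (log2 fold change -0.70 ± 0.080, adjusted p = 0.00237), and the falling ones were 1 without Ctrl 2. *Adamts19* was the single call among 33 ADAM and ADAMTS protease genes, at 5.34, 3.69 and 5.41 FPKM in Ctrl and 8.82, 10.4 and 8.45 in cKO libraries (log2 fold change 0.82 ± 0.13, adjusted p = 0.00854), and 2 were called without Ctrl 1, Ctrl 2, cKO 2 or cKO 3.

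In the signaling lists outside the Wnt pathway most calls were higher, as they were over all genes tested (3.89% higher and 2.25% lower). In the BMP and TGF-beta pathway 8 of 42 genes were higher (19%) and 3 lower (7.14%), both above these shares. The median was 0.11, and 0.056 without cKO 2. The ligand *Bmp7* was at 3.46, 3.02 and 4.14 FPKM in Ctrl and 6.59, 8.25 and 5.42 in cKO libraries (log2 fold change 0.76 ± 0.14, adjusted p = 0.0155). *Ltbp4* and *Ltbp3* encode proteins that anchor latent TGF-beta in the matrix. *Ltbp4* was at 11.5, 10.9 and 10.8 FPKM in Ctrl and 25.2, 24.3 and 23.1 in cKO libraries (log2 fold change 1.07 ± 0.060, adjusted p = 4.48e-05). *Ltbp3* was at 8.08, 6.8 and 7.19 FPKM in Ctrl and 15.3, 15.3 and 12.3 in cKO libraries (log2 fold change 0.87 ± 0.10, adjusted p = 0.00227). The receptor *Acvr2b*, the BMP target *Id4* and the antagonist *Chrd* rose as well. By contrast *Fst* (follistatin), an activin antagonist, fell, at 1.06, 2.03 and 1.64 FPKM in Ctrl and 0.489, 0.309 and 0.598 in cKO libraries (log2 fold change -0.80 ± 0.16, adjusted p = 0.0184). With a cKO mean of 0.465 FPKM, *Fst* passed the filter only through the Ctrl libraries, so a fall was the only call open to it.

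Hedgehog pathway genes had the highest median of the signaling lists, 0.32 over 14 genes, with 5 called higher (35.7%) and none lower. These were the co-receptors *Gas1*, *Cdon* and *Boc*, the transducer *Smo* and the transcription factor *Gli3*. *Gas1* was at 19.2, 21.2 and 19.6 FPKM in Ctrl and 31.1, 28.6 and 28.1 in cKO libraries (log2 fold change 0.53 ± 0.062, adjusted p = 0.00281). *Smo* was at 14.8, 12.7 and 14.9 FPKM in Ctrl and 21, 20.6 and 17.9 in cKO libraries (log2 fold change 0.46 ± 0.083, adjusted p = 0.0131). *Gli3*, which is mostly processed to a repressor, was at 3.55, 3.17 and 3.8 FPKM in Ctrl and 7.28, 8.09 and 5.17 in cKO libraries (log2 fold change 0.78 ± 0.14, adjusted p = 0.0132). In these 3 genes all cKO libraries lay above all controls. The targets by which the pathway's activity is often read did not pass the test, with *Gli1* at 3.17, 1.83 and 3.12 FPKM in Ctrl and 3.79, 4.39 and 3.08 in cKO libraries (log2 fold change 0.37 ± 0.17, adjusted p = 0.225). *Ptch1* was at 5.61, 6.62 and 5.96 FPKM in Ctrl and 5.98, 7.11 and 7.42 in cKO libraries (log2 fold change 0.15 ± 0.10, adjusted p = 0.419).

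Notch pathway genes had 4 of 25 called higher (16%, against 3.89% of all genes tested) and none lower (median 0.18). The effector *Hes1* was at 5.35, 3.2 and 4.37 FPKM in Ctrl and 7.14, 7.8 and 5.96 in cKO libraries (log2 fold change 0.60 ± 0.15, adjusted p = 0.0442). The effector *Hey2* was at 1.92, 1.3 and 1.53 FPKM in Ctrl and 2.64, 2.41 and 2.93 in cKO libraries (log2 fold change 0.51 ± 0.12, adjusted p = 0.0354). The ligand-like *Dll3* was at 5.31, 6.95 and 4.32 FPKM in Ctrl and 8.25, 7.83 and 9.66 in cKO libraries (log2 fold change 0.57 ± 0.14, adjusted p = 0.0422). The groups did not overlap in any of these. The receptor *Notch2* was at 7.997, 7.22 and 8.46 FPKM in Ctrl and 12.1, 11.5 and 9.76 in cKO libraries (log2 fold change 0.45 ± 0.094, adjusted p = 0.0229). In the FGF pathway 3 of 26 genes rose. *Fgf3* was at 0.274, 0.0890 and 0.213 FPKM in Ctrl and 1.81, 2.59 and 2.0002 in cKO libraries (log2 fold change 1.39 ± 0.13, adjusted p = 0.00111). With a Ctrl mean of 0.192 FPKM, *Fgf3* passed the filter only through the cKO libraries, so a rise was the only call open to it. *Fgf15*, a ligand of the early midline, was at 0.653, 0.432 and 0.59 FPKM in Ctrl and 1.17, 3.28 and 1.81 in cKO libraries (log2 fold change 0.93 ± 0.22, adjusted p = 0.0335), both low in level. Of 22 Hippo pathway genes 3 were higher, 1 without Ctrl 2 or without cKO 2, and *Tead3*, a partner of YAP, was at 4.08, 3.79 and 4.86 FPKM in Ctrl and 7.14, 7.18 and 6.72 in cKO libraries (log2 fold change 0.62 ± 0.10, adjusted p = 0.00780). Of 15 retinoic acid genes *Crabp1*, which binds retinoic acid in the cytoplasm, fell, at 17.8, 18.7 and 18.6 FPKM in Ctrl and 9.59, 11.1 and 6.6 in cKO libraries (log2 fold change -0.97 ± 0.14, adjusted p = 0.00626), and without cKO 3 the falling ones were 2.

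**Figure D4:**
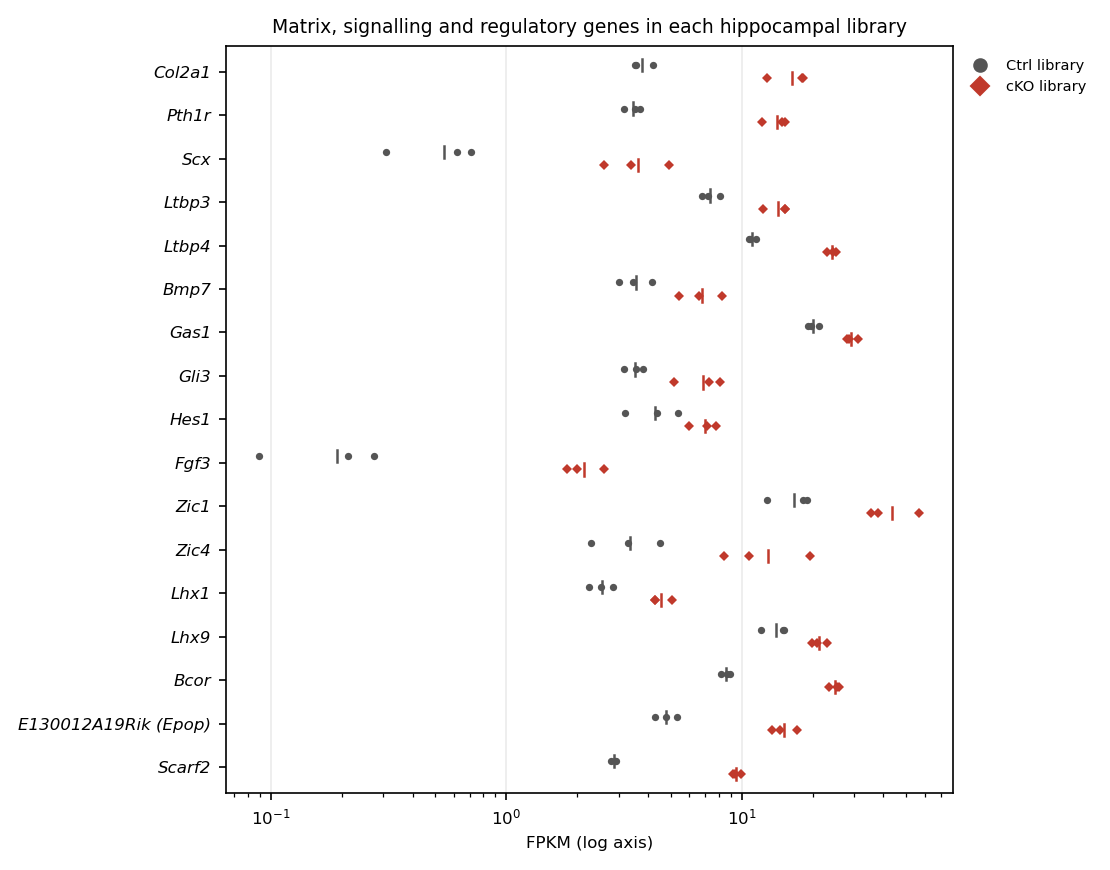
FPKM of 17 matrix, signaling and regulatory genes in each hippocampal library on a log axis (circles, Ctrl; diamonds, cKO; ticks, group means; 3 libraries each). In every gene shown the 3 cKO libraries lie above the 3 Ctrl libraries.

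The few Polycomb genes called were all higher. They made up 20% of the PRC1.1 list and 7.41% of the other Polycomb genes, against 3.89% called higher and 2.25% lower over all genes tested. Lists of 10 and 27 genes can hold no lower call at the latter share. Of 10 PRC1.1 subunits 2 were called higher, *Bcor*, the scaffold of the complex, read from an entry shared with *2900008C10Rik*, and its paralog *Bcorl1*, at 3.18, 4.55 and 3.68 FPKM in Ctrl and 5.47, 5.52 and 6.85 in cKO libraries (log2 fold change 0.54 ± 0.13, adjusted p = 0.0345). The *Bcor* gene lies at chrX:12036740-12160355 in mm10, and its 8.63, 8.19 and 8.93 FPKM in Ctrl and 25.4, 26 and 23.5 in cKO libraries left a wide gap between the groups. The other subunits were not called. *Pcgf1* was at 10.8, 7.4 and 12.1 FPKM in Ctrl and 14.2, 11.4 and 8.69 in cKO libraries (log2 fold change 0.16 ± 0.19, adjusted p = 0.671). *Rnf2* was at 24.9, 23.2 and 25.2 FPKM in Ctrl and 27.1, 27.7 and 24.6 in cKO libraries (log2 fold change 0.11 ± 0.062, adjusted p = 0.332). *Usp7* was at 37.8, 38.4 and 37 FPKM in Ctrl and 39.6, 37.7 and 37.4 in cKO libraries (log2 fold change 0.017 ± 0.047, adjusted p = 0.875). Among 27 other Polycomb genes 2 rose, and 4 without cKO 2. *E130012A19Rik*, an older name of *Epop*, a PRC2-associated protein, was at 5.3, 4.76 and 4.27 FPKM in Ctrl and 17.2, 14.6 and 13.4 in cKO libraries (log2 fold change 1.47 ± 0.10, adjusted p = 0.000173). *Cbx7*, a reader of H3K27 methylation, was at 3.64, 3.46 and 3.2 FPKM in Ctrl and 4.82, 5.28 and 5.24 in cKO libraries (log2 fold change 0.46 ± 0.089, adjusted p = 0.0161). The PRC2 core genes *Ezh2*, below the fold threshold, and *Suz12* were not called. *Ezh2* was at 16.1, 17.2 and 16 FPKM in Ctrl and 18.2, 20.2 and 19.5 in cKO libraries (log2 fold change 0.22 ± 0.062, adjusted p = 0.0614). *Suz12* was at 15.6, 13.7 and 15.2 FPKM in Ctrl and 16.3, 16.4 and 14.9 in cKO libraries (log2 fold change 0.089 ± 0.071, adjusted p = 0.503). No *Hox* gene reached the level for testing, out of 39 in the table.

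Among transcription factor genes most calls were higher. By the family column of the cortical table, 62 of 908 transcription factor genes were higher (6.83%) and 8 lower (0.881%), and among the genes with no family 3.68% were higher and 2.35% lower. The share was 18.8% for 64 bHLH, 17.9% for 39 HMG-box and 9.8% for 51 homeobox genes, while 18 of 405 C2H2 zinc finger genes rose. Of 60 genes of the Pax, Sox, Tbx, Fox, Gata, Ebf and Zic families, 15 rose and none fell, and of 49 homeobox genes outside the *Hox* clusters 7 rose and 1, *Pou3f1*, fell, or 2 without Ctrl 3. Several *Zic* genes, zinc finger factors of the dorsal midline, hem and septum, rose. *Zic1* was at 19, 12.8 and 18.2 FPKM in Ctrl and 35.5, 56.9 and 38.1 in cKO libraries (log2 fold change 1.32 ± 0.18, adjusted p = 0.00507). *Zic4* was at 4.52, 2.29 and 3.29 FPKM in Ctrl and 8.44, 19.5 and 10.7 in cKO libraries (log2 fold change 1.62 ± 0.27, adjusted p = 0.0100), and both were highest in cKO 2. *Zic2* and *Zic5* rose by 0.76 and 0.84 on the log2 scale. *Lmx1a*, a LIM homeobox gene of the hem and roof plate, was at 1.13, 0.995 and 1.75 FPKM in Ctrl and 2.72, 2.94 and 2.2 in cKO libraries (log2 fold change 0.67 ± 0.15, adjusted p = 0.0265). *Msx1*, a BMP target, was at 1.62, 1.87 and 2.69 FPKM in Ctrl and 3.92, 3.27 and 3.79 in cKO libraries (log2 fold change 0.62 ± 0.14, adjusted p = 0.0278). *Otx1* was at 6.84, 5.15 and 5.7 FPKM in Ctrl and 10.1, 8.83 and 9.75 in cKO libraries (log2 fold change 0.62 ± 0.10, adjusted p = 0.00949). Of 315 *Zfp* genes 5 rose and 1, *Zfp474*, fell, and the rising ones were 3 without cKO 2. *Zfp474*, with a cKO mean of 0.428 FPKM, passed the filter only through the Ctrl libraries.

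Because the deleted zinc finger reads CpG dinucleotides, promoter windows of genes at the ends of the ranking are shown for their CpG content. The windows run from 250 bases before to 50 after the start site in RefSeq (GRCm38.p6), 5′ to 3′ on the gene's strand, and capitals mark each CG. Over 32841 such windows in all, 94.6% held a CG, with a median of 7 and quartiles of 3 and 20. Since CG reads the same on both strands, a window has a single count. *Scarf2*, a scavenger receptor, rose from 2.89, 2.78 and 2.92 FPKM in Ctrl to 9.16, 9.93 and 9.4 in cKO libraries (log2 fold change 1.44 ± 0.080, adjusted p = 4.48e-05), and its window at chr16:17797032-17797331 on the plus strand holds 34 CG.
Scarf2: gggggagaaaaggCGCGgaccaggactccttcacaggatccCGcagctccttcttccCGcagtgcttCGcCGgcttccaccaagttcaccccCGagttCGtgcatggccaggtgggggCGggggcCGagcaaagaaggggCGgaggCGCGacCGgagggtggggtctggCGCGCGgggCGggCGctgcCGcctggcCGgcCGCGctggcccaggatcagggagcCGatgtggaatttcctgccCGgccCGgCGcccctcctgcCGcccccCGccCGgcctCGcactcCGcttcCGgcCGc
*Tac2*, which rose by as much, has 3 CG in its window at chr10:127724228-127724527, plus strand.
Tac2: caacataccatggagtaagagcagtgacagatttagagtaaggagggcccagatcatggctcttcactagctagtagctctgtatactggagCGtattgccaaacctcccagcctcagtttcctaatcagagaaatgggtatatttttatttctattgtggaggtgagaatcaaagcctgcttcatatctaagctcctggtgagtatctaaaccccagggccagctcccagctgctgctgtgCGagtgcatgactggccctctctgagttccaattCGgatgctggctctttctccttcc
The windows of *Zic1* (chr9:91365719-91366018, minus strand) and *Zic4* (chr9:91368722-91369021, plus strand) face away from each other with 2703 bases between them, and hold 31 and 8 CG. In the annotation used for gene length these genes overlap, with *Zic1* at chr9:91358058-91365810 and *Zic4* at chr9:91362413-91389348. The *Zic4* window thus lies inside the annotated gene and need not cover its only start.
Zic1: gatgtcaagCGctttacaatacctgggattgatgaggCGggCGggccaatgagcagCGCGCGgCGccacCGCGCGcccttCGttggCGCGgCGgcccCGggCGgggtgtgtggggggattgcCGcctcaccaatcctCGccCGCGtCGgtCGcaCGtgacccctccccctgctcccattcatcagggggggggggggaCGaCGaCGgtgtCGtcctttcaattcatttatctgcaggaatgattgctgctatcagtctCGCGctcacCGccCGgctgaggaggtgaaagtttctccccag
Zic4: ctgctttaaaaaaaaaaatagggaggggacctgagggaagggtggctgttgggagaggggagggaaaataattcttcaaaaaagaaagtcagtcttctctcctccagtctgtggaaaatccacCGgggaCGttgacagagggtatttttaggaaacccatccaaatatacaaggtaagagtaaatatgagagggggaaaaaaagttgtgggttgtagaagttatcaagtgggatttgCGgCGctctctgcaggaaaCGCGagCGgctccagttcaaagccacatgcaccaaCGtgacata
Of the falling genes, *Cck* (chr9:121495645-121495944, minus strand) holds 10 and *Nrgn* (chr9:37552696-37552995, minus strand) 17 CG.
Cck: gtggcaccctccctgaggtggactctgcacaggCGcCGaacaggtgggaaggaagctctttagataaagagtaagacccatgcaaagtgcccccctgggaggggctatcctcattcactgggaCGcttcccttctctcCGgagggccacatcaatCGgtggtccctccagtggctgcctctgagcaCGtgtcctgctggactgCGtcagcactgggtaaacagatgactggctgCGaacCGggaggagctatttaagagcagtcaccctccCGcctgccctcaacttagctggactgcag
Nrgn: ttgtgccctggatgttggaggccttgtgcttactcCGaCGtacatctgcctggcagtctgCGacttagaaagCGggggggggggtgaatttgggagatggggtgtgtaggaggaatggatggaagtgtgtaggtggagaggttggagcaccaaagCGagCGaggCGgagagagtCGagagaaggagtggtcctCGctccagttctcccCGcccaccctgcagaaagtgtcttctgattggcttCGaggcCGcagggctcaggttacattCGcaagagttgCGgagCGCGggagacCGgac
These windows were picked after the values were seen.

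None of 35 DNA replication genes was called by limma in either direction (median 0.13, 9 above and 0 below 0 at an unadjusted p under 0.05), nor any of 35 mitosis genes (median 0.045, 0 above and 0 below 0 at an unadjusted p under 0.05), and *Pcna* was at 67.2, 64 and 65.6 FPKM in Ctrl and 73.2, 68.1 and 66.1 in cKO libraries (log2 fold change 0.073 ± 0.051, adjusted p = 0.442). At any fold, 1 replication gene, *Uhrf1*, had an adjusted p under 0.05. Of 22 CDK inhibitors, D cyclins and p53 targets 3 were called higher and none lower, and the third was *Ccnd3*, a D cyclin. The imprinted *Cdkn1c* (p57) was at 15.7, 10.5 and 15.8 FPKM in Ctrl and 30.3, 26.4 and 24.2 in cKO libraries (log2 fold change 0.92 ± 0.14, adjusted p = 0.00736). *Cdkn1a* (p21) was at 7.49, 5.36 and 8.15 FPKM in Ctrl and 11.1, 14.1 and 10.2 in cKO libraries (log2 fold change 0.69 ± 0.15, adjusted p = 0.0261). Of 29 imprinted genes 2 rose, *Cdkn1c* and *Grb10*, a growth factor receptor adaptor at 10.5, 10.2 and 11.1 FPKM in Ctrl and 17.1, 18.1 and 17 in cKO libraries (log2 fold change 0.67 ± 0.063, adjusted p = 0.00108), and 1 fell, *Zim1*. The rising ones were 4 without Ctrl 1, and the falling ones 2 without Ctrl 2 and 0 without cKO 3. Histone genes of the replication-dependent kind had 4 of 18 called higher, 1 with an adjusted p under 0.05 (2 were called without cKO 1), and since their transcripts mostly lack a poly(A) tail these libraries catch them poorly. Of 18 immediate early genes 4 rose and 1 fell, 0 without Ctrl 2 or cKO 1. The rising ones were *Btg2*, *Gadd45b*, *Gadd45g* and *Ier2*. *Btg2*, an antiproliferative gene of committing progenitors, was at 4.56, 4.96 and 5.54 FPKM in Ctrl and 7.3, 8.84 and 9.85 in cKO libraries (log2 fold change 0.68 ± 0.11, adjusted p = 0.00962). *Fos* and *Arc* did not pass the test. *Fos* was at 1.77, 1.11 and 1.36 FPKM in Ctrl and 1.69, 2.6 and 1.92 in cKO libraries (log2 fold change 0.34 ± 0.15, adjusted p = 0.202). *Arc* was at 1.1, 1.08 and 1.24 FPKM in Ctrl and 1.32, 1.48 and 1.66 in cKO libraries (log2 fold change 0.22 ± 0.11, adjusted p = 0.281).

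Metabolic lists had few calls and small medians. Of all genes tested, 52.2% had a log2 fold change above 0 and 47.8% below it. Of 23 cholesterol genes 22 had a log2 fold change below 0, with a median of -0.15. Cytosolic ribosomal protein genes were above 0 in 72 of 81 (median 0.093), and 59 of 77 oxidative phosphorylation genes were below 0 (median -0.049). In glycolysis and hypoxia 3 of 26 rose and 1 fell. Of the lactate dehydrogenase subunits *Ldhb* rose, at 59.9, 56.7 and 62.1 FPKM in Ctrl and 85.1, 85.7 and 74.3 in cKO libraries (log2 fold change 0.45 ± 0.065, adjusted p = 0.00575). *Ldha*, below the fold threshold, was at 189.9, 179.6 and 183 FPKM in Ctrl and 163, 165 and 163 in cKO libraries (log2 fold change -0.17 ± 0.044, adjusted p = 0.0473). Heat shock and unfolded protein genes had 1 call of 23, the *Hspa1a* and *Hspa1b* entry, and 2 calls without Ctrl 2 or cKO 1. The ribosomal and oxidative phosphorylation lists had 1 call each, the first lost without Ctrl 1 and the other without Ctrl 2, cKO 1 or cKO 2.

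Guidance, adhesion and transport lists held calls in both directions. Over all genes tested, 3.89% were called higher and 2.25% lower, and the solute carriers, at 5.42% and 3.33%, lay near these shares. Of 69 axon guidance genes 6 rose and 3 fell, or 1 without cKO 2. The netrin *Ntn4* was at 1.73, 2.13 and 2.19 FPKM in Ctrl and 3.89, 3.79 and 2.98 in cKO libraries (log2 fold change 0.59 ± 0.12, adjusted p = 0.0190). The ephrin *Efna1* was at 3.26, 3.3 and 3.94 FPKM in Ctrl and 5.62, 6.28 and 5.24 in cKO libraries (log2 fold change 0.58 ± 0.10, adjusted p = 0.0119). The semaphorin *Sema3e* was at 4.31, 5.39 and 4.25 FPKM in Ctrl and 2.95, 2.7 and 3.33 in cKO libraries (log2 fold change -0.50 ± 0.11, adjusted p = 0.0286). Of 15 cadherins *Cdh22* and *Cdh24* rose and *Cdh11* fell, the last not without Ctrl 2, and limma called none of 13 clustered protocadherin entries (0 above and 0 below 0 at an unadjusted p under 0.05) and none of 55 tubulin and kinesin genes (2 above and 10 below 0 at an unadjusted p under 0.05). Intermediate filaments of immature and peripheral neural cells rose, with *Nes* at 16.3, 14.2 and 14.8 FPKM in Ctrl and 25.4, 23.5 and 18.1 in cKO libraries (log2 fold change 0.52 ± 0.11, adjusted p = 0.0238). *Vim* was at 177, 145 and 157 FPKM in Ctrl and 233.9, 237 and 206 in cKO libraries (log2 fold change 0.50 ± 0.081, adjusted p = 0.00916). *Prph* (peripherin) was at 0.674, 0.771 and 0.498 FPKM in Ctrl and 6.21, 4.08 and 3.43 in cKO libraries (log2 fold change 1.73 ± 0.17, adjusted p = 0.00151). Each of the 3 was higher in all cKO libraries than in any control. *Ngfr*, the p75 neurotrophin receptor, was at 1.11, 0.6001 and 1.56 FPKM in Ctrl and 5.13, 5.42 and 4.23 in cKO libraries (log2 fold change 1.52 ± 0.17, adjusted p = 0.00219). Among 240 solute carriers 13 rose and 8 fell, led by the glutamine transporter *Slc1a5* at 3.11, 2.36 and 2.32 FPKM in Ctrl and 6.92, 6.6 and 4.97 in cKO libraries (log2 fold change 0.99 ± 0.13, adjusted p = 0.00484). The cationic amino acid transporter *Slc7a3* was at 2.14, 1.98 and 2.23 FPKM in Ctrl and 0.526, 0.48 and 1.2 in cKO libraries (log2 fold change -0.87 ± 0.16, adjusted p = 0.0137). Of 56 orphan and adhesion receptors 4 rose and 6 fell.

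The share of genes called varied with level and gene type. By quartile groups of mean FPKM the share called higher was 6.96%, 5.44%, 2.2% and 0.952% from the lowest to the highest group, and the share called lower 4.16%, 2.17%, 1.55% and 1.13%. The filter on the mean lets genes into the lowest group through the group where they are high. In the highest group, above 23.3 FPKM, calls lower outnumbered calls higher. By quartile groups of gene length in the annotation columns of the cortical table the share called higher ran from 5.11% in the shortest to 2.51% in the longest. Long intergenic RNAs had 5 higher and 11 lower of 163, and antisense genes 12 and 5 of 123, whose reads cannot be told apart from those of the partner gene without strand information. By chromosome the share called higher ran from 1.29% on the X, where cKO 1 differs by sex from the other libraries, to 6.56% on chromosome 17.

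**Figure D5:**
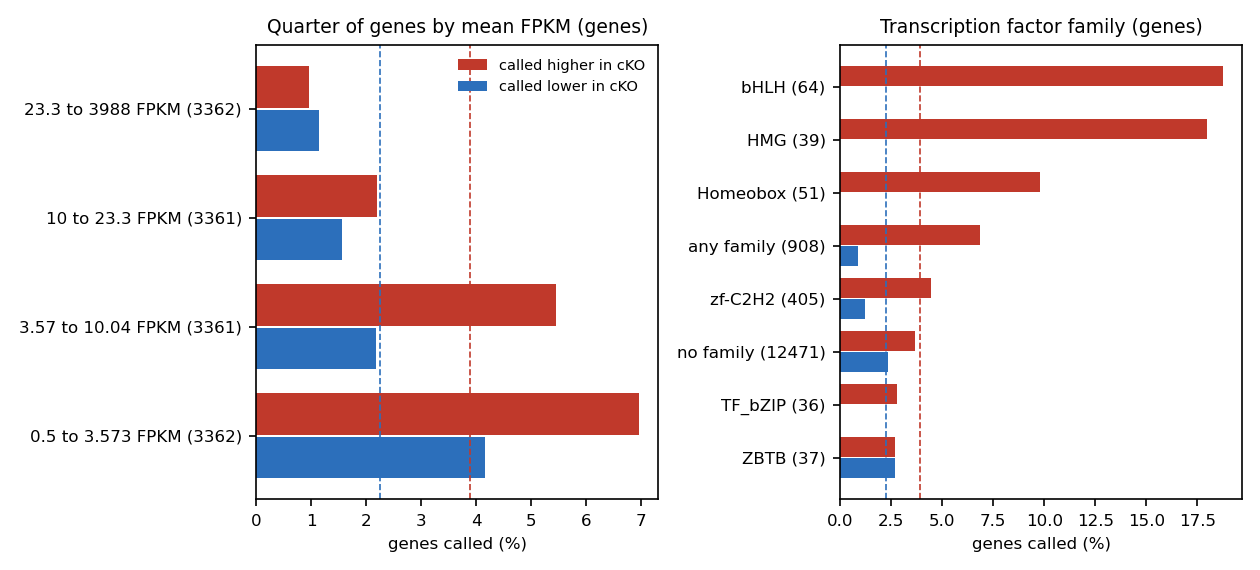
Percent of genes called higher (red) or lower (blue) in cKO hippocampi, by quartile group of mean FPKM (left) and by transcription factor family (right), with the number of genes in brackets and dashed lines at the shares over all genes tested. The share called higher falls from 6.96% in the lowest to 0.952% in the highest group, and bHLH and HMG-box genes reach 18.8% and 17.9%.

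The same lists in the P0 cortex of the same cKO, a table normalized separately with 2 libraries per group, had medians of 0.50 for MHC class I genes, 0.30 for microglia, -0.090 for synaptic vesicle genes, 0.077 for Hedgehog genes and 1.99 for meningeal genes, which were -0.090 in the hippocampus. All 15 meningeal genes tested in cortex were called higher, and collagen, endothelial and mural cell medians were 0.71, 0.34 and 0.33. The part that meninges and vessels have in the other cortical medians was not tested. In the *Rnf2* cKO hippocampus, also 2 libraries per group, the medians of MHC class I, Hedgehog, synaptic vesicle and microglia genes were -0.016, 0.047, -0.030 and -0.24. Those of Cajal-Retzius and homeobox genes were 0.30 and 0.17 there, and 0.28 and 0.14 in the *Kdm2b* cKO hippocampus. Neurospheres of the *Kdm2b* cKO had medians of 0.15 for MHC class I and 0.0098 for Hedgehog genes. Differences between the tables were not tested.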

How the data were processed

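Poly(A)-selected RNA of P0 hippocampus was sequenced with paired ends. Per the labels and methods, the authors trimmed reads with cutadapt, aligned them to mm10 (GRCm38) with STAR and computed FPKM per gene with Cufflinks 2.2.1, and these deposited FPKM values were used as they are. Total FPKM per library was 363633 to 383249, and the reads behind each value cannot be read from FPKM, so no interval for counting error is given. Of 27180 entries 2861 without a gene name (1.08 to 1.16% of FPKM) were left out, 1181 repeats of a name were dropped in favor of the entry with the highest mean, and 956 tested entries hold several overlapping genes. Strand-specific counting is not stated in the sources used here.

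Values were compared as log2(FPKM + 1) with limma 3.58.1 in R 4.3.3 (trend, no block), 3 Ctrl against 3 cKO libraries, with Benjamini-Hochberg adjustment over 13446 genes. The script was tested on simulated data. The members, the gene lists and the tests were chosen with earlier results of these data known. Lists are described by counts and medians only, beside the same over all genes, and several genes stand on more than 1 list. Genes to name were drawn from the 10 largest rises and falls, up to 3 called members per list and direction, tissue and genotype markers and the 5 largest changes among transcription factors. Not all of them are described above. Large falls left out there include *Sertm1* (log2 fold change -1.13 ± 0.22, adjusted p = 0.0170), *Pla2g3* (-1.05 ± 0.18, adjusted p = 0.0107) and *Tctex1d4* (-1.01 ± 0.17, adjusted p = 0.0105), by limma. *Tctex1d4*, with a cKO mean of 0.166 FPKM, passed the filter only through the Ctrl libraries. Other genes, such as *Syp*, *B2m*, *Psmb8*, *Notch2*, *Msx1*, *Scg2* and *Rsph1* and further list members that did not pass the test, were picked after their values were seen. Alternatives were another pseudocount, other filters, rescaled libraries, a median-ratio scaling, no trend, a replicate block, summed entries, other thresholds and each library left out. A comparison of promoter CpG content between called and other genes was left out. Only 79.9% of the tested genes have a window in the RefSeq table used here, just under the share required for it. Promoter windows of 6 genes are therefore printed as a description. Cortical, neurosphere and *Rnf2* tables were normalized separately and tested on their own. Transcription factor family, gene length and gene type come from the annotation columns of the cortical table. A few list members are not reported here.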

Additional observations from a re-analysis of the deposited data

Results flagged for a closer look

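In the P0 cortex of the same cKO, a separately normalized table with 2 libraries per group, *Tac2* lay on the other side of the controls than in the hippocampus, with 2.73 and 0.853 FPKM in Ctrl and 0.333 and 0.349 in cKO libraries (log2 fold change -0.97 ± 0.34, adjusted p = 0.340 by limma, against 1.51 in the hippocampus), and the difference between the tissues was not tested. Likewise *Crabp1* was at 0.905 and 0.645 FPKM in Ctrl and 0.952 and 2.33 in cKO cortex (log2 fold change 0.53 ± 0.28, adjusted p = 0.525, against -0.97 in the hippocampus), also not tested between tissues, and both genes are low in the cortex.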

How the results depend on the processing

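The number of genes called higher and the number of genes called lower stayed within a factor of 1.5 under a pseudocount of 0.1 (726 higher and 409 lower), without a filter (537 and 309), with a floor of 1 FPKM on the mean (476 and 273), with rescaled libraries (564 and 268) and with each library left out (488 to 590 and 305 to 354). Without the fold threshold they were 1537 higher and 1553 lower, and at an adjusted p under 0.05 they were 395 and 198. Correlations of deviations from the group means were 0.0491, -0.103 and -0.0858 between same-numbered libraries, and from -0.158 to 0.225 between the others. With 3 libraries per group these values cannot decide whether libraries were paired. A fit with the replicate block gave 520 higher and 311 lower. No named gene past the threshold changed sign under an alternative run, while some list medians near 0 did, as their values show. A pseudocount of 0.1, which weighs low genes more, gave list medians of -0.19 for dentate granule cell genes, -0.12 for striatal neuron genes, -0.13 for oligodendrocyte lineage genes, -0.34 for motile cilium genes, 0.39 for Hedgehog pathway genes, 0.20 for homeobox genes, 0.89 for MHC class I genes, 0.19 for interferon response genes and 0.079 for ADAM and ADAMTS genes. Without the filter they were -0.032 for striatal neuron genes, 0.24 for thalamic and habenular genes, 0.031 for cadherins, 0.27 for Hedgehog pathway genes, 0.017 for retinoic acid pathway genes, 0.090 for homeobox genes, 0.031 for Pax, Sox, Tbx, Fox, Gata and Zic factors, 0.074 for CDK inhibitors and 0.48 for MHC class I genes. With a floor of 1 FPKM on the mean they were 0.0074 for dentate granule cell genes, -0.042 for integrin and laminin genes, 0.16 for CDK inhibitors and 0.054 for ADAM and ADAMTS genes, and with libraries rescaled -0.0036 for the median of heat shock and unfolded protein response genes and 0.015 for solute carrier genes. Medians moved beyond the spread of library medians when a library was left out, over ranges of -0.068 to 0.022 for pan-hippocampal transcription factors, -0.10 to -0.039 for striatal neuron genes, -0.25 to -0.22 for synaptic vesicle genes, -0.23 to -0.17 for postsynaptic density genes, -0.11 to -0.052 for sodium and calcium channel genes, 0.049 to 0.21 for intermediate filament genes, -0.064 to 0.018 for tubulin and kinesin genes, -0.093 to -0.032 for oligodendrocyte lineage genes, -0.012 to 0.11 for cartilage matrix genes, -0.030 to 0.031 for integrin and laminin genes, 0.056 to 0.12 for BMP and TGF-beta pathway genes, 0.10 to 0.17 for Hippo pathway genes, -0.0013 to 0.077 for variant PRC1.1 subunits, 0.070 to 0.12 for other PRC1 and PRC2 subunits, 0.10 to 0.20 for CDK inhibitors, -0.083 to -0.022 for glycolysis and hypoxia genes, -0.080 to -0.033 for the median of heat shock and unfolded protein response genes, 0.52 to 0.60 for MHC class I genes, -0.045 to -0.0058 for the median of orphan and adhesion G protein-coupled receptor genes and 0.031 to 0.059 for ADAM and ADAMTS genes. Median-ratio scaling, moderation without a trend and summed entries moved no list median beyond that spread. The cause of these moves was not tested. The reads behind each FPKM value are not given, so the counting error of genes at low levels is not shown.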
